A study of Mus musculus with 9 samples.

Results

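The genes described here are 51 genes of mitosis and proliferation, followed in the right ventricle of mice that received monocrotaline (MCT), a plant toxin that injures the vessels of the lung and loads the right side of the heart. They were chosen by name as genes of the dividing cell, without a threshold on any value, in a list drawn up with earlier results of these data known. Of the 51 genes, 45 were measured on a probe set annotated to that gene alone, of 18820 genes in all. Ccnb1 was not measured here, and Ccne2, Foxm1, Kif20a, Nusap1 and Ube2c were found only on probe sets shared with another gene and were given no value.

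The study put 9 female C57BL/6 mice on arrays, 3 per group and 1 array per mouse, each mouse with its own number in the labels. MCT + NI mice (615, 617 and 619) received MCT and an isocaloric diet (the nutritional intervention, NI) enriched in protein and the amino acid leucine, with fish oil and oligosaccharides added. MCT mice (640, 641 and 644) received MCT and the standard diet AIN-93M. Sham mice (620, 624 and 625) received saline and AIN-93M. MCT was injected under the skin every week at 600 mg/kg for 8 weeks from 10 weeks of age, and the mice of the arrays were chosen, per the methods, to match for disease severity. There was no group on the NI diet without MCT.

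Cells that divide switch on a shared set of genes late in the cycle. Cyclins A and B with the kinase Cdk1 start mitosis, condensins and topoisomerase pack and untangle the chromosomes, motors and kinetochore proteins move them, and a ring of contractile proteins then divides the cell. Most heart muscle cells of an adult mouse no longer divide, while endothelial cells, fibroblasts and blood-borne cells of the heart can, and heart muscle cells can also copy their DNA without dividing.

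Mitosis genes were higher in both groups that had received MCT. Between MCT and sham mice, 30 of the 45 measured genes passed an adjusted p under 0.05 and all 30 were higher in MCT mice, where 4.65% of all genes tested were called higher. In 39 of the 45 every MCT mouse lay above every sham mouse, against 11.7% of all genes. The median difference of the 45 was 0.99 on the log2 scale, against -0.02 over all genes, and single genes ranged from -0.09 to 2.57. The difference reached 2-fold in 22 of them, against 0.988% of all genes, and 15 were among the 100 genes of the whole array with the largest positive difference. Against the same sham mice, MCT + NI mice had 26 of the 45 genes called, all higher, where 4.52% of all genes were called higher. In 35 of the 45 the MCT + NI mice lay wholly above the sham mice, against 10.7% of all genes, the median difference was 0.82, and 22 genes again reached 2-fold. Both comparisons use the same sham mice. With the mean of 10 atrial markers as a covariate, 13 genes were called in MCT + NI and 18 in MCT mice. Without mouse 640 the count in MCT mice was 18. The share of all genes called in these fits is not given here, so a fall particular to these genes cannot be read from them. With the covariate, the 22 genes given with values by mouse differed from sham by 0.51 to 2.64 in MCT + NI and 0.52 to 2.61 in MCT mice. In the main fit they differed by 0.19 to 2.59 and by 0.42 to 2.57.

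**Figure D1:**
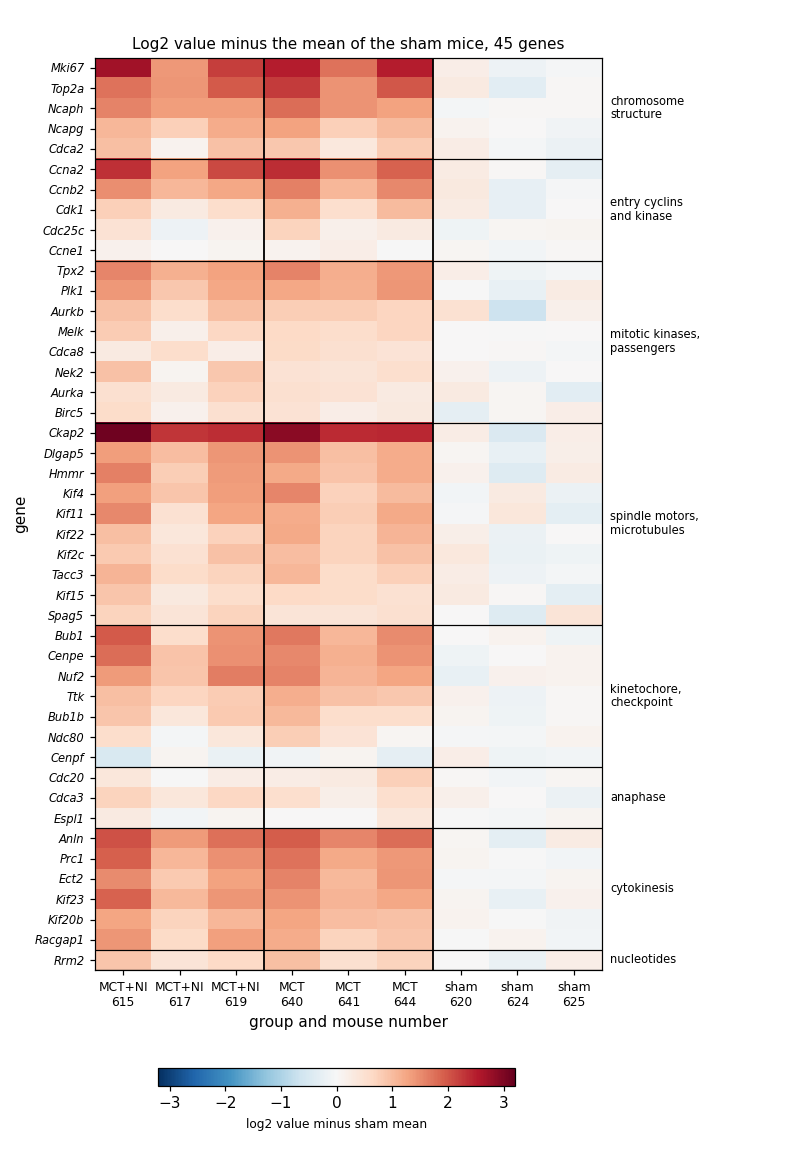
Heat map of the 45 measured genes (down the page, grouped by role) in the 9 mice (across, MCT + NI, MCT, then sham), coloured by the log2 value minus the mean of the sham mice. The 6 columns of mice that received MCT are red in most rows, with Ckap2 the largest difference in both groups, while Cenpf, Ccne1 and Espl1 stay near the sham colour.

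On these arrays the mitosis genes were dim. Array medians lay between 4.77 and 4.79 on the log2 scale, and 39 of the 45 genes had a mean below that of the median gene, 5.42. Of the 45 group means, 42 in MCT + NI mice, 42 in MCT mice and 26 in sham mice reached 3.83, the level under which 95% of 990 olfactory receptor genes lay. Folds of genes near that level can be understated by the array's background, which was not tested here. The labelled tissue held heart muscle in every mouse: the mean log2 value of 11 ventricular cardiomyocyte markers was 11.86 to 11.90 in MCT + NI mice, 11.82 to 11.87 in MCT mice and 11.84 to 11.88 in sham mice, and 1 of the 11 (Ryr2, difference -0.17) was called, lower in MCT mice. Atrial transcripts differed between mice. The mean log2 value of 10 atrial markers was 8.71, 6.67 and 6.20 in MCT + NI mice 615, 617 and 619, against 6.11, 6.38 and 9.94 in MCT mice 640, 641 and 644 and 9.45 to 10.29 in sham mice, and limma called none of the 10 in any comparison, with 9 in MCT + NI and 8 in MCT mice at an unadjusted p under 0.05 against sham. Mice 615 and 644 also had the highest mean of 7 epicardial and mesothelial markers, 5.86 and 5.58, against 4.85 to 5.09 in sham mice. Mouse 644 was within the sham range of atrial transcripts, and its mitosis genes lay a median of 0.94 above the sham mean, between 0.73 in mouse 641 and 1.18 in mouse 640. The part of the atrial transcripts in the results was not tested beyond the covariate. In whole tissue, more dividing cells and more of these transcripts per cell cannot be told apart.

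The promoters of these genes are shown because the genes moved together and because late cell cycle genes are known for a few short promoter elements: the cell cycle genes homology region (CHR, searched as TTTGAA and TTCGAA), the CCAAT box (CCAAT) and the core of the E2F site (TTTNNCGC). RefSeq windows of mouse build GRCm38.p6, from 250 bases before to 50 bases after a transcription start, were found for 42 of the 51 genes. Both strands were searched, and matches were counted whether or not they overlapped another motif. A CHR was present in 31 of the 42 genes (73.8%) and in 21.7% of all 27025 genes with a window. CCAAT was present in 71.4% of the 42 genes and in 41.1% of all, and TTTNNCGC in 14.3% and 5.93%. In 28 of the 42 genes a CHR began within 50 bases of the start, against 6.12% of all genes. The shares describe letters in a window and say nothing of binding. The bases before the start of 5 genes are printed 5′ to 3′ in the direction of the gene, with CHR and CCAAT matches on either strand in capitals, 4 of them genes that rose in MCT mice and Ccne1 a gene that did not pass the test. All 5 lie on the minus strand: Mki67 at chr7:135716380-135716529, Top2a at chr11:99024190-99024339, Ckap2 at chr8:22185820-22185969, Cdk1 at chr10:69352913-69353062 and Ccne1 at chr7:38107491-38107640.
Mki67: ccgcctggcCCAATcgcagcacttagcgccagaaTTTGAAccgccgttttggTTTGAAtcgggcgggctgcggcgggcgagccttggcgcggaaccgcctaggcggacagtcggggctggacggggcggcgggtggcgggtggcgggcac
Top2a: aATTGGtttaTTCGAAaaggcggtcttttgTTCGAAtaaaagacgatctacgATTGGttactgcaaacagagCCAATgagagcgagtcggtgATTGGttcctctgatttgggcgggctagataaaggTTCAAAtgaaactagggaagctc
Ckap2: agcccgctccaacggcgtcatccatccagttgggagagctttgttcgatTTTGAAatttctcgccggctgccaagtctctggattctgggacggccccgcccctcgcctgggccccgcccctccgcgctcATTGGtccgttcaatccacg
Cdk1: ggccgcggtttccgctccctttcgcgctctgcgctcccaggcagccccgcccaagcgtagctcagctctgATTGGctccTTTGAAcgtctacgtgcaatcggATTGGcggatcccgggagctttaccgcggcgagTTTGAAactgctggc
Ccne1: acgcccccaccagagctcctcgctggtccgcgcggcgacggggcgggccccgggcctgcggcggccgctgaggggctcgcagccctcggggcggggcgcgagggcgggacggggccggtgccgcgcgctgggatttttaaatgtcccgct

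Mki67 held CHR matches whose first bases lay at positions -116 and -98 from the start, Cdk1 at -71 and -15 and Ckap2 at -101, while the window of Ccne1 held neither a CHR nor a CCAAT. The presence of a CHR did not separate called from uncalled genes. It was found in 21 of the 27 genes with a window that were called in MCT against sham mice (77.8%) and in 9 of the 12 that were not (75%). Between MCT and sham mice, measured genes with a CHR had a median difference of 1.01 and genes without one of 0.73. In other lists a CHR was present in 65.5% of 58 further mitotic genes, in 20.8% of 24 genes of DNA replication and in 16.3% of 627 other genes called higher in MCT mice.

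**Figure D2:**
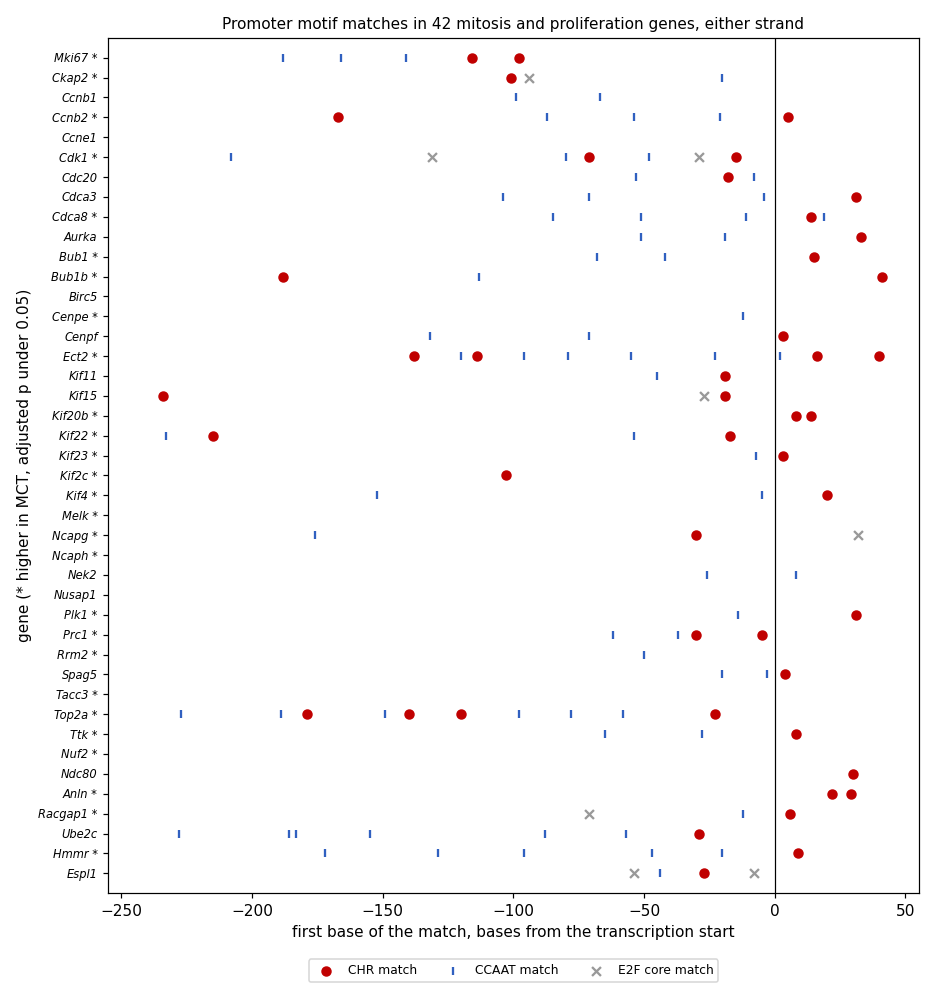
Positions of motif matches in the promoter windows of 42 genes, with the distance of the first base of each match from the transcription start on the horizontal axis and a row per gene (asterisk, called higher in MCT against sham mice). Red points (CHR) gather near the start in 28 of the 42 genes, and the rows of Ccne1, Birc5, Melk, Ncaph, Nusap1, Tacc3 and Nuf2 are empty.

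Chromosome structure genes had 4 of 5 members called in both groups that received MCT. Mki67 encodes Ki-67, which coats mitotic chromosomes and is the usual marker of proliferating cells. Its log2 value was 7.13, 5.84 and 6.67 in MCT + NI mice, 6.96, 6.18 and 6.96 in MCT mice, and 4.65, 4.29 and 4.40 in sham mice. No mouse that received MCT came within the sham range. The difference from sham was 2.10 in MCT + NI mice (4.29-fold, adjusted p = 0.00535) and 2.25 in MCT mice (4.76-fold, 95% interval 2.88 to 7.88, adjusted p = 0.00379). Top2a, the topoisomerase that untangles sister DNA, had values of 6.04, 5.72 and 6.25 in MCT + NI mice, 6.53, 5.74 and 6.28 in MCT mice, and 4.58, 3.97 and 4.34 in sham mice. It was 3.27-fold higher in MCT + NI mice (adjusted p = 0.00285) and 3.70-fold higher in MCT mice (adjusted p = 0.00165). Ncaph, a subunit of the condensin complex that compacts chromosomes, had the smallest adjusted p of the 45 genes in both comparisons with sham. Its values were 5.90, 5.65 and 5.65 in MCT + NI mice, 6.09, 5.76 and 5.61 in MCT mice, and 4.25, 4.34 and 4.35 in sham mice, so the sham mice differed by little and lay far below the rest. The difference was 1.42 ± 0.12 in MCT + NI mice (SE, adjusted p = 0.000371) and 1.51 ± 0.12 in MCT mice (SE, adjusted p = 0.00027). Ncapg, another condensin subunit, was 2.00-fold higher in MCT + NI mice and 2.03-fold higher in MCT mice. Cdca2, which brings a phosphatase to chromosomes, was not called, with a difference of 0.66 in MCT + NI mice and 0.67 in MCT mice.

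**Figure D3:**
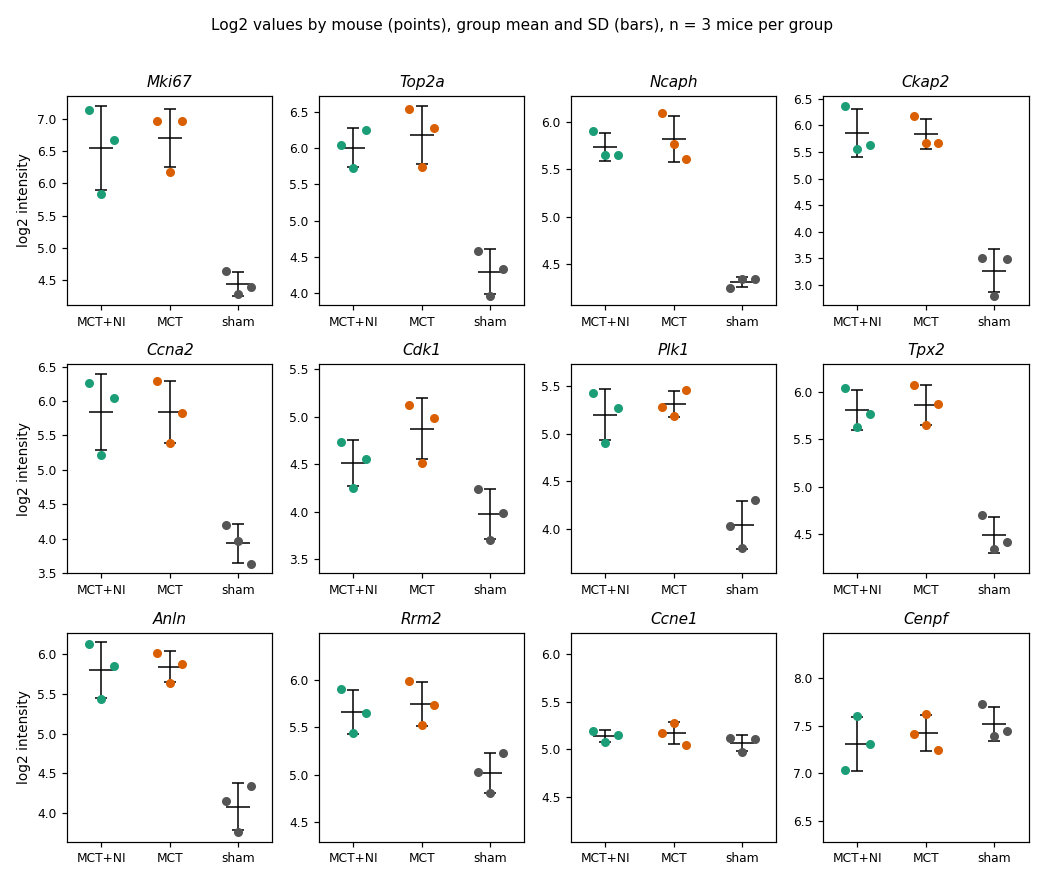
Log2 intensity (vertical axis, its range set per gene) of 12 genes in each mouse, with points for mice and bars for the group mean and SD of 3 mice, in the order MCT + NI, MCT and sham. In Mki67, Top2a, Ncaph, Ckap2, Ccna2, Plk1, Tpx2, Anln and Rrm2 the sham points lie below all others, in Cdk1 the lowest MCT + NI point lies just above the highest sham point, and in Ccne1 and Cenpf the groups overlap.

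Among the cyclins and the kinase that start mitosis, 2 of 5 measured members were called in MCT + NI mice and 3 of 5 in MCT mice. Ccna2, cyclin A2, had values of 6.26, 5.21 and 6.04 in MCT + NI mice, 5.40 to 6.29 in MCT mice and 3.63 to 4.20 in sham mice, and was 3.75-fold higher in each (adjusted p = 0.00633 in MCT + NI and 0.00661 in MCT mice). Ccnb2, cyclin B2, had values of 6.84, 6.41 and 6.60 in MCT + NI mice, 6.97, 6.41 and 6.88 in MCT mice, and 5.67, 5.09 and 5.31 in sham mice, which was 2.40-fold and 2.63-fold above sham (adjusted p = 0.00467 in MCT + NI and 0.00283 in MCT mice). Both cyclins thus stood clear of sham in every mouse that received MCT. Cdk1, the kinase that cyclins A and B activate, stood closer to sham. Its values were 4.73, 4.25 and 4.55 in MCT + NI mice, 5.12, 4.52 and 4.98 in MCT mice, and 4.24, 3.70 and 3.98 in sham mice. MCT + NI mouse 617 lay only just above sham mouse 620. Cdk1 was 1.45-fold higher in MCT + NI mice (adjusted p = 0.17) and 1.86-fold higher in MCT mice (adjusted p = 0.0285). The call in MCT mice was lost without sham mouse 624 or 625, MCT mouse 640 or 644 or MCT + NI mouse 619, with an adjusted p of up to 0.11. Cdc25c, the phosphatase that activates Cdk1, had a difference of 0.15 in MCT + NI mice and 0.39 in MCT mice and was not called. Ccne1, cyclin E1, acts earlier, at the start of DNA synthesis. It was at 5.07 to 5.19 in MCT + NI mice, 5.05 to 5.28 in MCT mice and 4.97 to 5.11 in sham mice, so its groups overlapped, and its interval in MCT mice ran from 0.946-fold to 1.22-fold.

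The mitotic kinases and the passenger complex, which corrects faulty attachments of chromosomes, were called in 2 of 8 members in MCT + NI mice and in 4 of 8 in MCT mice. Tpx2, which activates Aurora kinase A on the spindle, had values of 6.04, 5.63 and 5.76 in MCT + NI mice, 6.07, 5.64 and 5.87 in MCT mice, and 4.70, 4.35 and 4.41 in sham mice. It was 2.50-fold higher in MCT + NI mice (adjusted p = 0.00112) and 2.59-fold higher in MCT mice (adjusted p = 0.000848). Plk1, polo-like kinase 1, had values of 5.43, 4.90 and 5.27 in MCT + NI mice, 5.28, 5.19 and 5.46 in MCT mice, and 4.03, 3.79 and 4.30 in sham mice. Its differences were 2.24-fold in MCT + NI mice (adjusted p = 0.00372) and 2.41-fold in MCT mice (adjusted p = 0.00223). The Aurora kinases did not pass the test. Aurkb, the kinase of the passenger complex, was 1.76-fold above sham in MCT + NI mice (adjusted p = 0.105) and 1.68-fold in MCT mice (adjusted p = 0.135), with sham values that ran from 3.72 to 4.87. Aurka was 1.43-fold above sham in MCT + NI mice and 1.34-fold in MCT mice. Its groups stood only just clear of sham. The lowest value was 4.54 in both MCT + NI and MCT mice, and the highest sham value was 4.52. That 4.54 was the same number in mice 617 and 644. Values repeated exactly between mice in 5 of the 45 genes and in 12043 of all 18820. Of the other passengers, Cdca8 (borealin) was 1.28-fold above sham in MCT + NI mice (adjusted p = 0.0814) and 1.44-fold in MCT mice (adjusted p = 0.0166), and Birc5 (survivin) was called in neither, with overlapping groups. The kinase Melk was 1.46-fold above sham in MCT + NI mice (adjusted p = 0.0635) and 1.55-fold in MCT mice (adjusted p = 0.0356). Nek2, a kinase of the centrosome, had values of 4.30, 3.45 and 4.23 in MCT + NI mice, 3.82, 3.76 and 3.88 in MCT mice, and 3.50, 3.19 and 3.37 in sham mice. MCT + NI mouse 617 fell within the sham range, and the difference of 0.64 in MCT + NI mice was not called (adjusted p = 0.115). Without that mouse Nek2 was called in MCT + NI mice (adjusted p = 0.00262) and in MCT mice (adjusted p = 0.0266).

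Spindle motors and microtubule proteins were called in 6 of 10 measured members in MCT + NI mice and in 7 of 10 in MCT mice. Ckap2, a protein of spindle microtubules, had the largest difference of the 45 genes. Its values were 6.37, 5.56 and 5.63 in MCT + NI mice, 6.17, 5.67 and 5.67 in MCT mice, and 3.52, 2.81 and 3.48 in sham mice, with all sham values below 3.83, the level that marks the dimmest genes. It was 6.00-fold higher in MCT + NI mice (adjusted p = 0.00076) and 5.92-fold higher in MCT mice (95% interval 3.91 to 8.98, adjusted p = 0.000734), and ranked 9 of 18820 genes by its difference between MCT and sham mice. Dlgap5, which bundles spindle fibres near chromosomes, had values of 5.33, 4.999 and 5.43 in MCT + NI mice, 5.44, 4.96 and 5.18 in MCT mice, and 4.06, 3.77 and 4.19 in sham mice, or 2.38-fold and 2.28-fold above sham (adjusted p = 0.0025 in MCT + NI and 0.00305 in MCT mice). Hmmr, Kif4, Kif2c and Tacc3 were called in both groups as well. Kif22, a motor that pushes chromosome arms, was called in MCT mice (2.01-fold, adjusted p = 0.0116) and not in MCT + NI mice (1.61-fold, adjusted p = 0.0597). Its values were 4.92, 4.33 and 4.71 in MCT + NI mice, 5.19, 4.68 and 5.05 in MCT mice, and 4.15, 3.77 and 3.97 in sham mice. The call in MCT mice was lost without mouse 640 (adjusted p = 0.0536), and in MCT + NI mice Kif22 passed without mouse 617 (adjusted p = 0.0255). Kif11, the motor that separates the spindle poles, was 2.13-fold above sham in MCT + NI mice (adjusted p = 0.0521) and 2.09-fold in MCT mice (adjusted p = 0.0577), just outside the threshold. Kif15 and Spag5 were not called in either group.

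Kinetochore and checkpoint genes were called in 4 of 7 members in MCT + NI mice and in 5 of 7 in MCT mice. Ttk, the kinase at the top of the spindle checkpoint, had values of 3.84, 3.56 and 3.69 in MCT + NI mice, 4.05, 3.82 and 3.74 in MCT mice, and 3.02, 2.71 and 2.91 in sham mice, and was 1.76-fold and 1.99-fold above sham (adjusted p = 0.00444 in MCT + NI and 0.0016 in MCT mice). Cenpe, a motor that brings chromosomes to the spindle equator, had values of 5.33, 4.43 and 4.999 in MCT + NI mice, 5.07, 4.68 and 4.96 in MCT mice, and 3.40, 3.55 and 3.64 in sham mice. It was 2.62-fold higher in MCT + NI mice (adjusted p = 0.0047) and 2.59-fold higher in MCT mice (adjusted p = 0.00506). The checkpoint kinase Bub1 was 2.50-fold and 2.70-fold above sham in MCT + NI and MCT mice and called in both. Within the NDC80 complex, which grips the ends of microtubules, Nuf2 was 2.46-fold above sham in MCT + NI mice and 2.48-fold in MCT mice and called in both, while Ndc80 was 1.22-fold and 1.35-fold above sham, with overlapping groups, and was not called. The difference between these genes was not tested. Cenpf, a large protein of the outer kinetochore, was the 1 gene of the 45 that was lower in both groups. It had values of 7.03, 7.60 and 7.30 in MCT + NI mice, 7.41, 7.62 and 7.24 in MCT mice, and 7.73, 7.39 and 7.44 in sham mice. Its groups overlapped and its interval in MCT mice ran from 0.735-fold to 1.19-fold.

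Genes of anaphase and proteolysis were called in 1 of 3 members in MCT + NI mice, Cdca3, and in 0 of 3 in MCT mice. Cdc20, which activates the ligase that starts anaphase, had values of 4.79, 4.41 and 4.67 in MCT + NI mice, 4.67, 4.71 and 5.19 in MCT mice, and 4.47, 4.34 and 4.48 in sham mice. It was 1.14-fold above sham in MCT + NI mice, whose values overlapped those of sham, and 1.34-fold in MCT mice (adjusted p = 0.157). Cdca3, a protein of mitotic entry that is degraded after mitosis, had values of 5.38, 5.03 and 5.33 in MCT + NI mice, 5.19, 4.86 and 5.21 in MCT mice, and 4.82, 4.69 and 4.48 in sham mice. It was called in MCT + NI mice (1.50-fold, adjusted p = 0.0409) and not in MCT mice (1.34-fold, adjusted p = 0.125), and the call was lost in 7 of the 9 fits that left out 1 mouse, those without 615, 619, 640, 644, 620, 624 or 625. Espl1, separase, which cuts the rings that hold sister chromosomes, was 1.07-fold above sham in MCT + NI mice and 1.09-fold in MCT mice.

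Cytokinesis genes were called in 6 of 6 measured members in both groups. Anln, anillin, the scaffold of the contractile ring, had values of 6.12, 5.43 and 5.85 in MCT + NI mice, 6.02, 5.64 and 5.87 in MCT mice, and 4.15, 3.75 and 4.34 in sham mice. It was 3.30-fold higher in MCT + NI mice (adjusted p = 0.00139) and 3.40-fold higher in MCT mice (adjusted p = 0.0012). Ect2, the exchange factor that switches on the ring's GTPase RhoA, had values of 6.15, 5.49 and 5.92 in MCT + NI mice, 6.23, 5.68 and 6.06 in MCT mice, and 4.61, 4.59 and 4.74 in sham mice. The sham mice lay close together and below all others, and the differences were 2.32-fold and 2.54-fold (adjusted p = 0.00466 in MCT + NI and 0.00271 in MCT mice). Prc1, which bundles the microtubules between the separating chromosomes, had values of 5.23, 4.37 and 4.76 in MCT + NI mice, 5.05, 4.52 and 4.68 in MCT mice, and 3.40, 3.30 and 3.21 in sham mice. It was 2.80-fold higher in MCT + NI mice (adjusted p = 0.00372) and 2.72-fold higher in MCT mice (adjusted p = 0.00403). Kif23, the motor of the centralspindlin complex, had values of 6.19, 5.35 and 5.73 in MCT + NI mice, 5.75, 5.40 and 5.54 in MCT mice, and 4.41, 4.07 and 4.46 in sham mice. It was 2.72-fold and 2.38-fold above sham (adjusted p = 0.00371 in MCT + NI and 0.00726 in MCT mice). Kif20b, another motor of the midzone, had values of 4.70, 4.17 and 4.50 in MCT + NI mice, 4.72, 4.44 and 4.38 in MCT mice, and 3.57, 3.43 and 3.35 in sham mice. It was 2.01-fold higher in MCT + NI mice (adjusted p = 0.00444) and 2.09-fold higher in MCT mice (adjusted p = 0.00325). Racgap1, the partner of Kif23, was 2.16-fold and 1.91-fold above sham and called in both.

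Rrm2, the small subunit of ribonucleotide reductase that supplies DNA building blocks, acts, like cyclin E1, in the phase of DNA synthesis. It had values of 5.90, 5.44 and 5.65 in MCT + NI mice, 5.98, 5.52 and 5.73 in MCT mice, and 5.03, 4.80 and 5.23 in sham mice. It stood only just inside the threshold, at 1.56-fold in MCT + NI mice (adjusted p = 0.0497) and 1.65-fold in MCT mice (adjusted p = 0.0303). The call in MCT + NI mice was lost in 7 of the 9 fits that left out 1 mouse, those without 615, 619, 641, 644, 620, 624 or 625, and the call in MCT mice in 5, those without 619, 640, 644, 620 or 624.

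The NI diet was asked about directly by comparing MCT + NI with MCT mice. Per the methods these mice were matched for disease severity, and how that choice bears on the differences was not tested. None of the 45 genes was called, where 0.0% of all genes were, and none reached an unadjusted p under 0.05, which 2.9% of all genes did. In none of the 45 did the groups fail to overlap, against 6.08% of all genes. The median difference was -0.03 on the log2 scale, with 17 genes higher and 28 lower in MCT + NI mice, and its sign changed with the mouse left out. The largest differences were Cdk1, lower by 0.36 in MCT + NI mice (difference -0.36, 95% interval -0.81 to 0.08), and Kif22 (-0.32, interval -0.73 to 0.09). Among genes higher in MCT + NI mice Kif23 led (0.19, interval -0.27 to 0.65). Cdc20 differed by -0.24 (interval -0.58 to 0.11) and Nek2 by 0.17 (interval -0.29 to 0.63). For all 45 genes the 95% interval of this difference, not corrected for the number of genes, lay within 1 log2 unit of 0 on either side, so a 2-fold difference in either direction fell outside it. The half-width of the intervals ran from 0.19 to 0.73 with a median of 0.41. A difference smaller than a gene's half-width could not reach an unadjusted p under 0.05 with 3 mice per group. A call at the adjusted threshold needs a larger difference than that. Of the 45 genes, 25 were called against sham in both groups, 5 in MCT mice alone, 1 in MCT + NI mice alone and 14 in neither. The 5 were Cdk1, Kif22, Cdca8, Melk and Bub1b, and the differences of these genes between MCT + NI and MCT mice were not called.

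**Figure D4:**
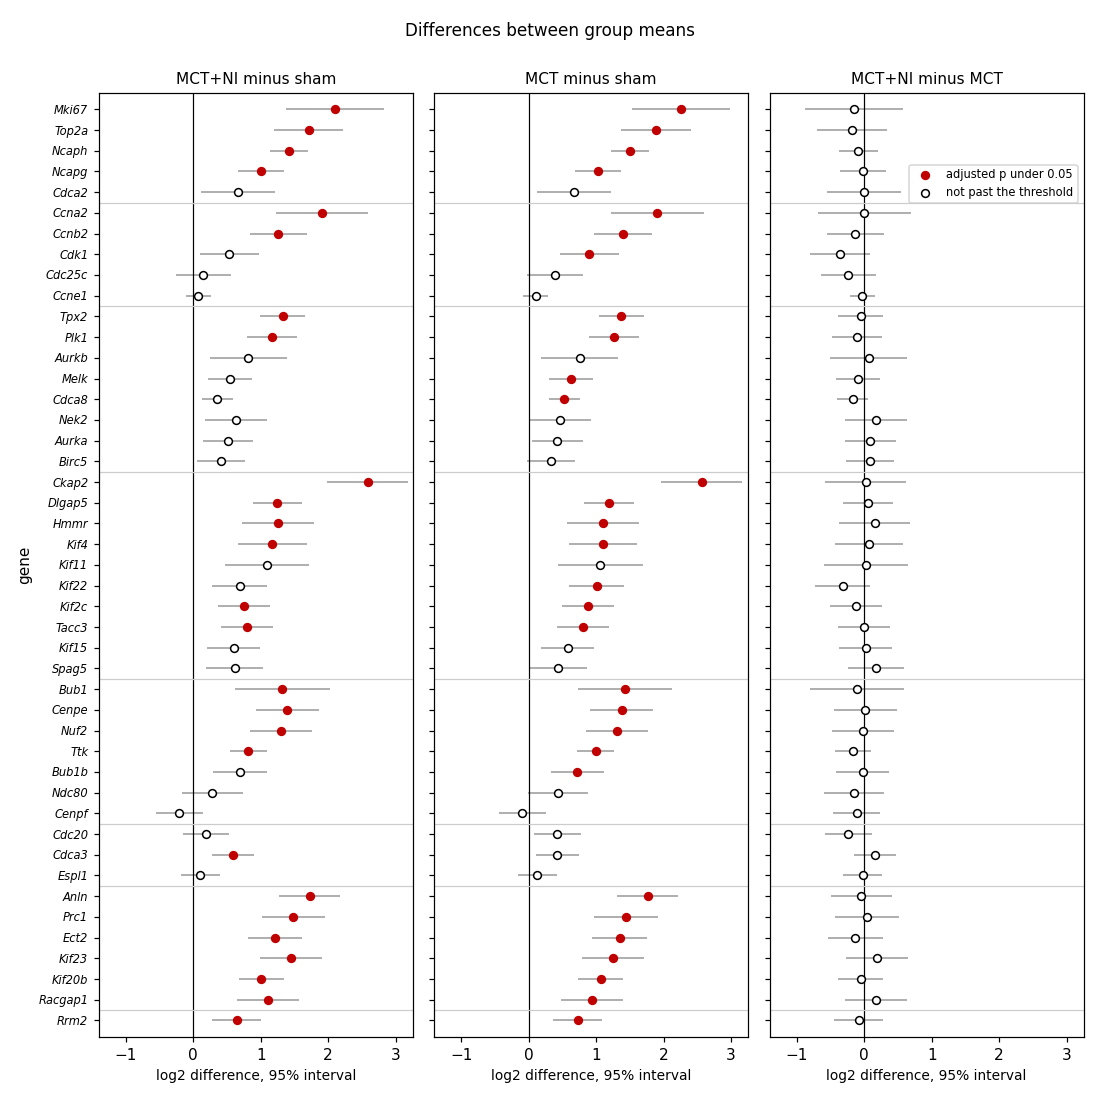
Log2 differences of the 45 genes (rows, grouped by role) with 95% intervals for MCT + NI minus sham, MCT minus sham and MCT + NI minus MCT mice, filled in red where the adjusted p was under 0.05. Filled points number 26 in the left panel, 30 in the middle panel and 0 in the right panel, where every interval lies between -1 and 1.

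The mice of a group differed from each other, and they did so across most of the genes at once. The median over the 45 genes of the value minus the sham mean was 1.07, 0.57 and 0.96 in MCT + NI mice 615, 617 and 619, against 1.18, 0.73 and 0.94 in MCT mice 640, 641 and 644 and 0.10, -0.09 and 0.02 in sham mice 620, 624 and 625. Mouse 617 was the lowest MCT + NI mouse in 43 of the 45 genes and mouse 615 the highest in 35. Mouse 640 was the highest MCT mouse in 33 and mouse 641 the lowest in 32. The median over all genes, which RMA holds nearly equal between arrays, was between -0.02 and 0 in every mouse. Without mouse 640 the number of genes called in MCT against sham mice was 18, the lowest of the fits that left out 1 mouse, and without mouse 617 it was 32, the highest. Without mice 644 and 615, those with the most atrial transcript in their groups, 16 genes were called in MCT + NI and 20 in MCT mice against sham, in a fit chosen after seeing the data. The shares of all genes called in these fits are not given here.

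Other genes of the cell cycle, from lists chosen with results of these data known, moved in the same direction where they were called. Of 62 further mitotic genes, 20 were called higher in MCT + NI and 22 in MCT mice against sham and none lower, with a median difference of 0.45 and 0.56. Of all genes, 4.52% and 4.65% were called higher in these comparisons. Among the 62, 5 were lower in MCT + NI and 7 in MCT mice without being called, with Pttg1 wholly below sham in both. Gtse1, a protein of the late cycle that binds p53, led the called genes with 5.60, 5.92 and 5.76 in MCT + NI mice, 5.93, 6.01 and 5.60 in MCT mice, and 4.06, 3.71 and 3.69 in sham mice, a 3.83-fold and a 4.07-fold difference (adjusted p = 0.000158 in MCT + NI and 0.000132 in MCT mice). Its order within groups differed from that of the mitosis genes. Mice 617 and 641, the lowest of their groups there, were the highest in Gtse1. Citron kinase (Cit), which acts in cytokinesis, was 1.94-fold and 2.12-fold above sham, Cks2, a subunit that docks on Cdk1, 1.68-fold and 1.90-fold, and Psrc1, a spindle protein, 1.78-fold and 2.05-fold, each called in both groups. These counts depended on single mice. In MCT mice the count was 10 without mouse 640 and 14 without sham mouse 624, and in MCT + NI mice it was 11 without mouse 615, 619 or sham mouse 624. With the atrial covariate it was 5 in MCT + NI and 10 in MCT mice, and without mice 615 and 644 it was 6 and 15. The shares of all genes called in these fits are not given here, so these counts cannot be set against 4.52% and 4.65%. Of 26 genes of DNA replication, 5 were called higher in each comparison with sham and none lower, with medians of 0.27 in MCT + NI and 0.25 in MCT mice. Hells, a chromatin remodeller of replicating cells, was 2.28-fold above sham in MCT + NI mice and 2.86-fold in MCT mice, and Rrm1, the large subunit of the enzyme to which Rrm2 belongs, 1.37-fold and 1.34-fold. The count in MCT + NI mice was 3 without mouse 615 or 619 or sham mouse 624, and in both comparisons it was 2 with the atrial covariate. Here too the shares of all genes in those fits are not given. Whether mitotic and replication genes differ in how much they moved was not tested.

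Regulators of the cycle were called in both directions. Of 19 transcription regulators, 4 were called higher in each comparison with sham and none lower. With the atrial covariate 1 was called in each, in a fit whose share over all genes is not given here. Mybl1, of the Myb family, was 2.37-fold above sham in MCT + NI mice and 2.23-fold in MCT mice, the activator E2f1 1.70-fold and 1.77-fold, and the repressors E2f7 1.50-fold and 1.57-fold and E2f8 1.94-fold and 1.80-fold. Inhibitors and quiescence genes went both ways. Cdkn1a encodes p21, an inhibitor of cyclin-dependent kinases that p53 switches on. It had log2 values of 9.40, 9.51 and 9.66 in MCT + NI mice, 9.53, 9.45 and 9.39 in MCT mice, and 5.96, 5.71 and 6.33 in sham mice. The groups stood far apart, at 11.5-fold in MCT + NI mice (adjusted p = 6.52e-06) and 10.97-fold in MCT mice (adjusted p = 7.08e-06). Ccng1, another target of p53, was at 11.26 to 11.41 in MCT + NI mice, 11.20 to 11.26 in MCT mice and 11.14 to 11.31 in sham mice and was not called. The inhibitors of the same family as p21 were lower. Cdkn1c (p57) was at 5.71, 5.69 and 5.30 in MCT + NI mice, 5.45, 5.51 and 5.56 in MCT mice, and 6.56, 6.64 and 6.55 in sham mice, a fall to 0.495-fold and 0.474-fold of sham (adjusted p = 0.000811 in MCT + NI and 0.000603 in MCT mice). Cdkn1b (p27) fell to 0.767-fold of sham in MCT + NI mice and 0.818-fold in MCT mice, and both were called. Of the 14 genes, 2 were called higher and 2 lower in MCT + NI mice and 1 higher and 2 lower in MCT mice. Of all genes, 1.75% were called lower in MCT + NI and 1.61% in MCT mice, beside the 4.52% and 4.65% called higher. None of these lists had a gene called between MCT + NI and MCT mice by limma, and an unadjusted p under 0.05 was reached by 1 of the 62 mitotic genes, 1 of the 26 replication genes and none of the 19 regulators and 14 inhibitors.

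Some markers of cells of the heart that can divide were called against sham as well, and their part in the mitosis genes was not tested. The counts stand beside 4.52% of all genes called higher and 1.75% lower in MCT + NI mice, and 4.65% higher and 1.61% lower in MCT mice. Of 14 macrophage and monocyte markers, 2 were called higher and 2 lower in MCT + NI mice and 4 higher and 1 lower in MCT mice. Their mean log2 value was 6.94, 6.67 and 7.11 in MCT + NI mice 615, 617 and 619, against 7.15, 6.77 and 7.07 in MCT mice 640, 641 and 644 and 6.54 to 6.78 in sham mice. Mice 617 and 641, the lowest of their groups in the mitosis genes, were also the lowest of their groups in this mean. The highest MCT + NI mouse differed, 615 in the mitosis genes and 619 in this mean, while mouse 640 was the highest MCT mouse in both. Mouse 617 was also lowest of its group in endothelial (8.44), fibroblast (8.06), smooth muscle and pericyte (8.54) and T and B cell (4.07) means. It was the highest of its group in neutrophil and erythroid markers (4.29), as was mouse 641 among MCT mice (4.47). Mouse 641 was not the lowest MCT mouse in the endothelial, fibroblast, smooth muscle and pericyte or T and B cell means. Smooth muscle and pericyte markers were called higher in 6 of 10 in each comparison with sham, with a mean of 8.54 to 8.60 in MCT + NI mice, 8.47 to 8.67 in MCT mice and 8.19 to 8.21 in sham mice. Of 12 fibroblast markers, 4 were called higher in MCT + NI and 5 in MCT mice, with means of 8.06 to 8.35, 8.28 to 8.30 and 7.75 to 7.96 in MCT + NI, MCT and sham mice. Of 15 endothelial markers, 7 were called higher and 2 lower in MCT + NI mice and 5 higher and 1 lower in MCT mice, and their means overlapped between the groups, with a median difference of 0.07 in MCT + NI and 0.13 in MCT mice. Of 10 T and B cell markers, 1 (Cd4) was called, higher in each comparison with sham. Of 6 neutrophil and erythroid markers limma called none, and none had an unadjusted p under 0.05. None of these markers was called between MCT + NI and MCT mice by limma, and 1 fibroblast, 1 smooth muscle and pericyte and 1 T and B cell marker had an unadjusted p under 0.05.

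**Figure D5:**
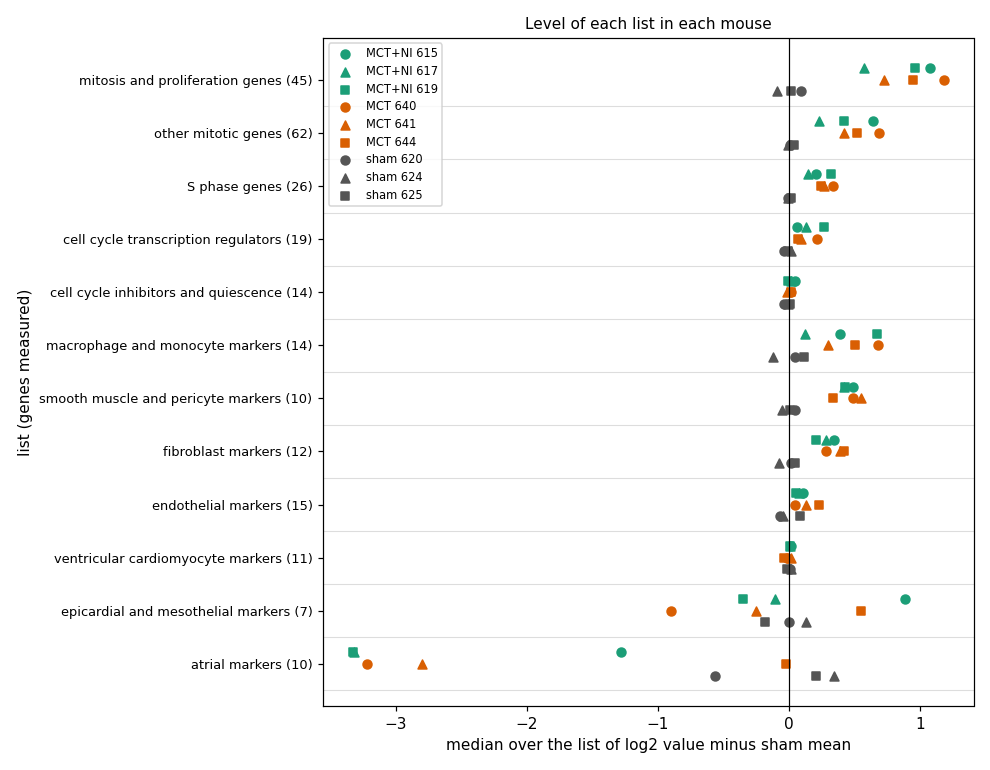
Median over each list of the log2 value minus the sham mean (horizontal axis) in every mouse, with a row per list (number of genes measured in brackets), colour for the group and shape for the mouse. The mitosis genes lie between 0.57 and 1.18 in the 6 mice that received MCT and between -0.09 and 0.10 in sham mice, the cardiomyocyte markers stay near 0, and the atrial markers of MCT mouse 644 lie among the sham mice.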

How the data were processed

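Right ventricular RNA of 9 mice was hybridised to mouse gene 1.1 ST arrays, and the authors deposited 1 table of log2 values, normalised by RMA per the submitters' processing notes, for 35556 probe sets. The methods describe probe sets redefined by gene, whereas the deposited table carries the manufacturer's numbers. Of these, 21218 were annotated to 1 gene, 1881 to several and 12457 to none. The brightest probe set of a gene, by its mean over all mice, stood for it, which gave 18820 genes. Differences were tested with limma 3.58.1 in R 4.3.3, with 1 mean per group over all 9 mice, an intensity trend, two-sided tests and Benjamini-Hochberg adjustment over all genes, and an adjusted p under 0.05 was called. The script was tested on simulated data. The error given with a difference is its standard error. Each array is a separate mouse, and the number of arrays limits the precision.

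Members and lists were chosen with earlier results of these data known. Genes given with values in every mouse were the called genes with the 12 smallest p of each comparison, the usual proliferation markers Mki67, Top2a, Cdk1, Ccna2 and Rrm2, and in each role the 2 genes with the smallest p between MCT and sham mice and the 1 with the largest difference between MCT + NI and MCT mice, and from each list up to 4 called genes with the smallest p, with Cdkn1a and Ccng1. Other names, such as Ccne1, Cenpf, Espl1 and Aurkb, were chosen after their values were seen. Promoter windows came from RefSeq (GRCm38.p6). Alternatives were other filters, normalisations, probe set rules and models, the atrial level as a covariate, each mouse left out in turn and, added after seeing the data, fits without pairs of mice.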

Additional observations from a re-analysis of the deposited data

How the results depend on the processing

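No setting turned the direction of a called result. Of the 45 genes, those called numbered 5 in MCT + NI and 5 in MCT mice against sham when genes below the median gene were left out, since 6 members remained, 13 and 18 with the atrial level as a covariate, and, in MCT + NI mice, 16 without mice 615 and 644, a fit added after seeing the data. The shares of all genes called under these settings, and with single mice left out, are not given here. With the 6 brighter members the median difference was 1.24 in MCT + NI and 1.37 in MCT mice, and their level above sham was 1.50, 0.95 and 1.26 in MCT + NI mice 615, 617 and 619 and 1.60, 1.05 and 1.47 in MCT mice 640, 641 and 644. With each mouse left out in turn, 18 to 32 genes were called in both comparisons with sham, the fewest when mouse 640 (MCT against sham) and mouse 615 or 619 (MCT + NI against sham) were dropped, and the median difference was 0.73 to 1.06 in MCT + NI mice and 0.87 to 1.08 in MCT mice. Between MCT + NI and MCT mice no gene was called under any setting, and the median, which has no settled sign, ran from -0.17 to 0.14 with each mouse left out. Of the 22 genes given with values in every mouse, many were named for a small p in these same comparisons. The fit without genes below the median gene held 5 of the 22, and the fit with the olfactory cut held 20. In the fits that held them, 13 of the 18 called in MCT + NI mice and 16 of the 19 called in MCT mice always kept their call. The exceptions were Ccna2, Cdca3, Kif20b, Rrm2 and Ttk in MCT + NI mice and Cdk1, Kif22 and Rrm2 in MCT mice. With the atrial covariate the adjusted p of Ccna2, Kif20b and Ttk in MCT + NI mice was 0.0702, 0.0694 and 0.079. The cause of these losses was not tested. No paired analysis was possible because the mouse numbers are not shared between groups. Dim signal and 3 mice per group limit what could be called.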

Other observations

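Single markers of vessel and supporting cells were called in both directions in the groups that received MCT, and those named as called have the smallest p of their lists between MCT and sham mice. The endothelial transcription factor Erg was 1.76-fold above sham in MCT + NI mice and 1.72-fold in MCT mice, the junction proteins Cdh5 1.71-fold and 1.67-fold and Esam 1.58-fold and 1.51-fold, whereas the receptor Flt1 fell to 0.601-fold and 0.612-fold of sham. Of the 15 endothelial markers, 6 were lower in MCT + NI and 7 in MCT mice, and the largest difference was that of Plvap, at 0.38-fold of sham in MCT + NI and 0.483-fold in MCT mice, which was not called (adjusted p = 0.0576 and 0.144). Among pericyte markers Cspg4 was 1.59-fold above sham in MCT + NI mice and 1.75-fold in MCT mice and Pdgfrb 1.38-fold and 1.39-fold. The collagen receptor Ddr2, a fibroblast marker, was 1.25-fold and 1.41-fold above sham, and the macrophage receptor Mertk 1.64-fold and 1.61-fold, while the scavenger receptor Cd163 fell to 0.472-fold of sham in MCT + NI mice and 0.435-fold in MCT mice. Each of these genes except Plvap was called in both comparisons with sham by limma.

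Kif11, Prc1 and Top2a had further probe sets, all far below 3.83, the level under which 95% of olfactory receptor genes lay. The differences between MCT and sham mice were 0.48 on the dimmer probe set of Kif11, 0.01 on that of Prc1, and -0.12 and 0.27 on those of Top2a. On the sets of Kif11 (0.48) and Top2a (0.27) every MCT mouse lay above every sham mouse. Between MCT + NI and sham mice the differences were 0.14 on the dimmer set of Kif11, -0.16 on that of Prc1, and -0.06 and 0.30 on those of Top2a. On that Kif11 set the MCT + NI mice, at 2.96, 2.46 and 2.36, overlapped sham mice, at 2.40 to 2.56. These differences were not tested, and their sizes cannot be set against those of the brighter sets.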
